A study of Homo sapiens with 2 samples.

Results

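The genes examined were those of the mitochondrial ribosomal proteins (MRP genes). They were chosen by symbol alone, as protein-coding genes of the RefSeq GRCh38 table whose symbol starts with MRPL or MRPS followed by a digit. This gave 77 of 20037 protein-coding genes, of which 49 had an MRPL symbol, given to proteins of the large subunit, and 28 an MRPS symbol, given in most cases to proteins of the small subunit. RFX6, a DNA-binding protein of the RFX (regulatory factor X) family, was mapped by ChIP-seq in MHCC-97H, a human hepatocellular carcinoma cell line that overexpressed RFX6 with an HA tag. The series has 2 libraries, 1 HA-RFX6 ChIP and 1 input, both from MHCC-97H cells, and the input was not analysed here. The peaks came from 1 ChIP library, so there was no replicate error, and the read depth behind a peak was unknown. Since the mapped RFX6 was tagged and overexpressed, the library does not show RFX6 at its own level.

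MRP genes lie in the nucleus. Their proteins are made in the cytosol, imported into mitochondria and assembled with ribosomal RNA from mitochondrial DNA into the mitoribosome. The mitoribosome translates the few messages of mitochondrial DNA, which code for core subunits of the respiratory chain and of ATP synthase. Some MRP proteins descend from bacterial ribosomal proteins, whereas others were added during the evolution of mitochondria. The symbols do not always give the subunit, since MRPS18A and MRPS30 are found in the large subunit.

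The first question was how many MRP genes had a deposited peak (called an interval here) at a gene end. Positions are given in GRCh38, 1-based. An interval was counted at a gene end when its midpoint lay within 1 kb of either end of the gene. It was counted in the gene body when its midpoint lay inside the gene but farther from both ends. A gene-end interval was found at 12 of the 77 MRP genes, or 15.6% (95% Wilson interval 9.15% to 25.3%). Of all 20037 protein-coding genes, 3100 (15.5%) had one. The share of the MRP genes was therefore at the background of the list. The 12 genes were MRPL3, MRPL4, MRPL17, MRPL18, MRPL20, MRPL27, MRPL36, MRPL58, MRPS17, MRPS26, MRPS28 and MRPS34. A further 2 genes, MRPL23 and MRPL24, had an interval in the body only. With the body included, 14 of 77 MRP genes (18.2%, 11.2% to 28.2%) had an interval, compared with 19.5% of all protein-coding genes. The other 63 MRP genes had none. The Wilson intervals cover the counting of genes only, and no test was made, because genes of 1 list are not replicates.

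**Figure D1:**
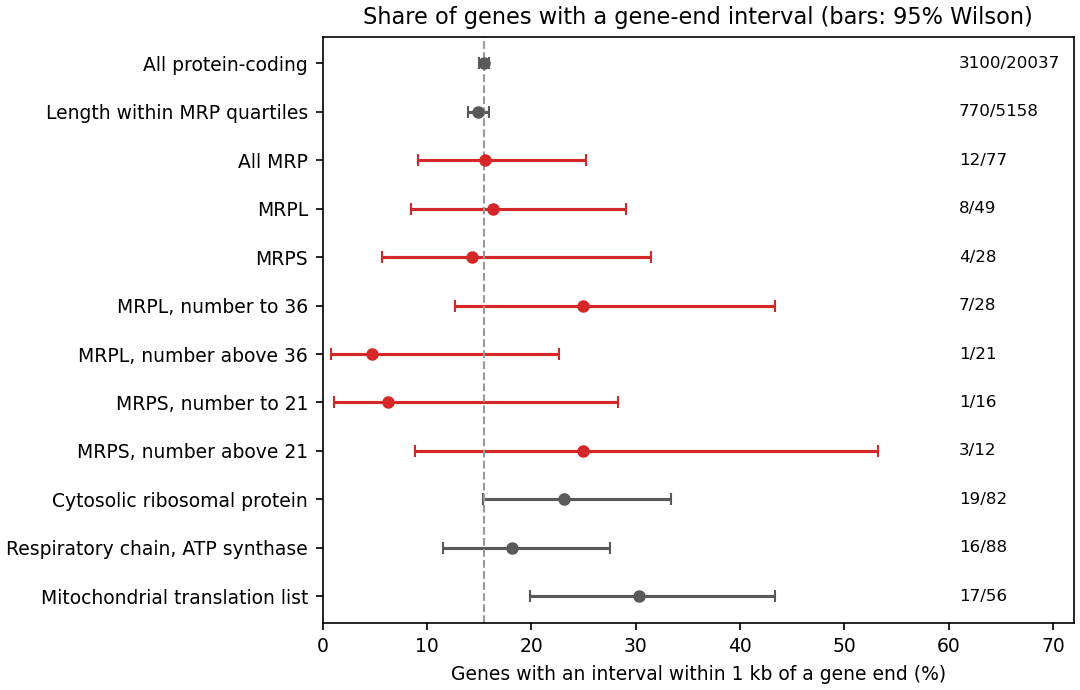
The share of genes with a gene-end interval is plotted in percent for gene groups, with points for shares and bars for 95% Wilson intervals, MRP groups in red, other groups in grey, and the number of genes at the right. The dashed line is the share of all protein-coding genes (15.5%), and the point of all MRP genes (15.6%) lies on it.

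The share was similar in genes of comparable size. MRP genes were short, with a median length of 8618 bp and quartiles of 4639 and 16861 bp, compared with a median of 24115 bp for all protein-coding genes. Among the 5158 protein-coding genes between these quartiles, 770 (14.9%) had a gene-end interval. When the chromosomes were weighted as the MRP genes are spread over them, the share of all protein-coding genes was 16.2%. The MRP genes lie on 21 chromosomes, and those with a gene-end interval lay on 11 of them, with at most 2 on a single chromosome. On chromosome 2, where 13.7% of the protein-coding genes had a gene-end interval, 0 of 8 MRP genes had one. On chromosome 17, 2 of 8 had one, and the share of all protein-coding genes there was 20.1%.

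To show the DNA at these genes, the upstream promoter stretches of the 5 MRP genes with the highest gene-end scores are given, and 7 are shown because 3 genes had the same score in the last place. Each is the 150 bases before the RefSeq start (GRCh38.p14), written 5′ to 3′ on the strand of the gene, and capitals mark bases inside an interval of the gene.
MRPL27, chr17:50373185-50373334, minus strand: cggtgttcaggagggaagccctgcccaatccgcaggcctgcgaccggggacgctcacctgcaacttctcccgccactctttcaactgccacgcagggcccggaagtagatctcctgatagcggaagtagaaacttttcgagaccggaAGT
MRPL36, chr5:1799838-1799987, minus strand: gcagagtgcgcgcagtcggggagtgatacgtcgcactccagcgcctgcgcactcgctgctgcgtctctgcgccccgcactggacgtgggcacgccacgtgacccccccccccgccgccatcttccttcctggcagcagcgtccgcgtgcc
MRPS17, chr7:55951727-55951876, plus strand: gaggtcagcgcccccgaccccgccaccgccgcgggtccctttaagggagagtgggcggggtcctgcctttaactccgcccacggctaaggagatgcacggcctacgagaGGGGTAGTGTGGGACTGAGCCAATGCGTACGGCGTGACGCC
MRPL3, chr3:131502972-131503121, minus strand: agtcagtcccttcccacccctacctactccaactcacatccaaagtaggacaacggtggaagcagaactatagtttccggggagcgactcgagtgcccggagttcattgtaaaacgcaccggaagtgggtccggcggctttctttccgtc
MRPL20, chr1:1407294-1407443, minus strand: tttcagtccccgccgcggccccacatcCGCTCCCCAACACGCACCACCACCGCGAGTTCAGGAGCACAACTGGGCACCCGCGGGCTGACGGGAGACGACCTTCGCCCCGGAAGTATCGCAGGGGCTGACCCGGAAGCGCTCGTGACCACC
MRPS34, chr16:1773135-1773284, minus strand: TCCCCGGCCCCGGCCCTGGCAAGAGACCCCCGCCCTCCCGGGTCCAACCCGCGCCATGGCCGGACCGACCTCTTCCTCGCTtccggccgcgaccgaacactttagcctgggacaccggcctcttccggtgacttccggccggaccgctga
MRPL4, chr19:10251801-10251950, plus strand: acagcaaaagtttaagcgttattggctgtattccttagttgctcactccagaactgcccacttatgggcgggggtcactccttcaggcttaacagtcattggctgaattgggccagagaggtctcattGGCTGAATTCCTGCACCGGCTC
The intervals reached into 5 of these 7 stretches. They covered 123 of the 150 bases at MRPL20, 81 at MRPS34, 41 at MRPS17, 22 at MRPL4 and 3 at MRPL27. No base was covered at MRPL3 and MRPL36, where the intervals lay downstream of the listed start or far upstream of it.

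The members were then examined one by one, beginning with the large subunit and the proteins with a bacterial counterpart. The score is the whole number the authors' list gives for each peak. What it stands for is not stated, so it serves only to rank intervals, and a percentile is the share of the 3054 intervals at the ends of protein-coding genes with a lower score. MRPL27, whose bacterial counterpart lies near the peptidyl transferase centre, had the highest gene-end score of the group. Its interval at chr17:50372951-50373187 had a score of 66 (percentile 94.96) and covered the listed start. MRPL3 and MRPL4 are core proteins of the large subunit. The MRPL3 interval at chr3:131502626-131502840 had a score of 42 (percentile 73.1), and its midpoint lay 238 bp downstream of the start, in the gene and in the non-coding gene LOC105374114. At MRPL4, the interval at chr19:10251929-10252217 scored 39 (percentile 66.9) and covered the start. These 3 intervals were thus above the median of the gene-end intervals.

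MRPL20, a protein whose bacterial counterpart is needed early in assembly, had an interval at chr1:1407091-1407416 with a score of 39. It covered the start, with its midpoint 40 bp downstream. At MRPL18, the interval at chr6:159790399-159790703 scored 35 (percentile 58.5). It covered 1 of 3 listed starts, from which its midpoint was 84 bp away, and lay 739 bp inside the outermost end of the gene. MRPL17 was the lowest of the large-subunit genes, with a score of 17 (percentile 5.44). Its interval at chr11:6683121-6683567 was the widest of the gene-end intervals of the group, at 447 bp, and was centred 4 bp from the start. The MRPL17 interval was listed on 2 lines, with scores of 17 and 13.

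MRPL36, the counterpart of a small zinc-binding protein of bacteria, was the only MRP gene with 3 intervals. The interval at chr5:1801476-1801754, with a score of 49, lay outside the high-coordinate end of the gene, 181 bp from it and 208 bp from an end of NDUFS6, a subunit gene of respiratory complex I. Its midpoint was 1778 bp upstream of the single listed MRPL36 start. The interval at chr5:1799365-1799676, with a score of 51, was in the gene body and its midpoint was 317 bp downstream of that start. The remaining interval at chr5:1799047-1799302, with a score of 28, lay 789 bp inside the far end, and its midpoint was 663 bp downstream of that start. The highest score at MRPL36 was therefore not at a gene end of the table, although it was near a listed start.

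Among the 21 MRPL genes with numbers above 36, which mostly stand for proteins specific to mitochondria, MRPL58 was the only one with an interval. MRPL58 codes for a peptidyl-tRNA hydrolase that releases stalled chains and is also built into the large subunit. Its interval at chr17:75012535-75012919 covered the start, with scores of 34 and 29 on its lines.

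Of the 28 MRPS genes, 4 had a gene-end interval, and all 4 code for proteins of the small subunit. At MRPS17, which has a bacterial counterpart, the interval at chr7:55951836-55952057 scored 47 (percentile 80.6), and its midpoint was 69 bp downstream of the start, which it covered. The other 3 genes, MRPS26, MRPS28 and MRPS34, have numbers above 21, which mostly stand for proteins specific to mitochondria. MRPS34 had an interval at either end on chromosome 16. The one at chr16:1773204-1773439, with a score of 39, was 187 bp upstream of the start, and the one at chr16:1771419-1771800, with a score of 21, lay 286 bp beyond the far end. The latter was 66 bp from an end of NME3, a nucleoside diphosphate kinase gene. The MRPS26 interval at chr20:3046416-3046748 had a score of 17 (percentile 5.44) and lay 530 bp downstream of the start. At MRPS28, the interval at chr8:80029977-80030216 had a score of 25 on both of its lines (percentile 23.6), and its midpoint was 163 bp inside the high-coordinate end. The strand of MRPS28 was not given by the tables used.

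The 2 genes with an interval in the body only code for proteins at the exit of the peptide tunnel. The MRPL24 interval at chr1:156740945-156741165, with a score of 37, lay 1661 bp inside the gene as the table draws it, but covered the RefSeq start listed for MRPL24, with the midpoint 33 bp downstream. The MRPL23 interval at chr11:1966657-1967128 had scores of 30 and 27 on its lines and lay 19560 bp inside a gene of 67613 bp. No exons are given in the gene table, so exonic and intronic intervals were not separated.

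**Figure D2:**
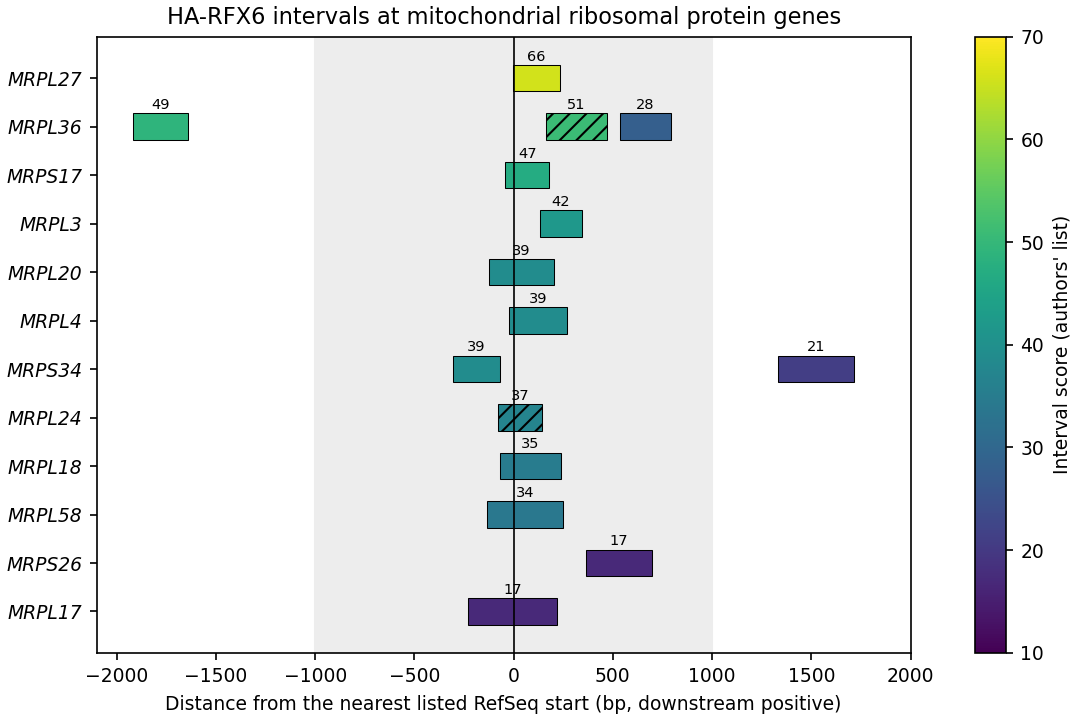
Each bar is 1 interval, drawn to scale along the distance in bp from the nearest listed RefSeq start of its MRP gene (downstream positive), with the score above the bar and as its colour, and hatching for intervals in the gene body by the gene table. The grey band is the window of 1 kb around the start, and 8 of the 12 genes shown have a bar across the start; MRPS28 and MRPL23, for which no start was listed, are left out.

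The scores of the MRP genes spread over much of the range of the list. The 14 gene-end intervals had a median score of 37 (quartiles 25.8 and 41.3, range 17 to 66). For all 3054 gene-end intervals, the median score was 32 (quartiles 25 and 43, range 13 to 126). The quartile ranges overlapped. A score of at least 30 was found for 9 of the 14 and for 1744 of the 3054 intervals. The median width was 284 bp at MRP genes and 282 bp at all gene ends. Among the 12 genes, 9 had at least 1 gene-end interval with a score of at least 30, and MRPL17, MRPS26 and MRPS28 did not.

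**Figure D3:**
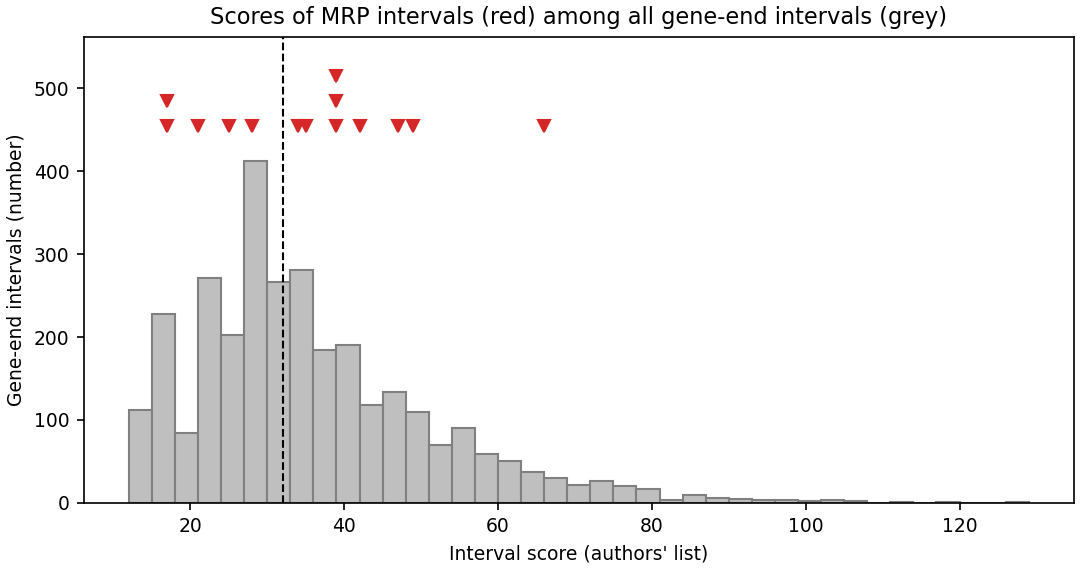
The grey histogram gives the number of gene-end intervals (n = 3054) by score, the dashed line their median (32), and each red triangle 1 of the 14 gene-end intervals of MRP genes. The triangles lie between 17 and 66, on both sides of the median.

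The position along the gene was examined next, for the 69 of 77 MRP genes with a start in the RefSeq promoter table. MRPL2, MRPL10, MRPL13, MRPL15, MRPL21, MRPL23, MRPL35 and MRPS28 were not matched. At the start end of the gene, 11 of the 69 genes had an interval (15.9%, 9.14% to 26.3%). At the far end, 2 of 69 had one (2.90%, 0.799% to 9.97%), and these were MRPL36 and MRPS34, which also had one at the start end. These ends are the outermost ones of the gene, and neither far-end case was clear. At MRPL36, the far-end interval lay 663 bp downstream of the listed start, and the start-end interval 1778 bp upstream of it. At MRPS34, the far-end interval was 286 bp from MRPS34 but 66 bp from an end of NME3. For all 15843 protein-coding genes with a known strand, the shares were 15.1% at the start end and 1.15% at the far end. When the distance was taken to a listed start in place of a gene end, 12 of 69 MRP genes (17.4%, 10.2% to 28.0%) had an interval within 1 kb, compared with 16.3% of the 15842 protein-coding genes. Of these 12, 11 were among the genes with a gene-end interval, and the other one was MRPL24. Of the 13 intervals within 1 kb of a listed MRP start, 11 had their midpoint downstream, and the median distance was 115 bp, with a range from 4 to 663 bp. Of the 2696 intervals within 1 kb of a start of any protein-coding gene, 59.8% had their midpoint downstream, and the median distance was 168 bp. The measures differ, as the 2696 were measured to the nearest start of any gene and the 13 to a start of their MRP gene.

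Many MRP genes share their ends with a neighbour. Another protein-coding gene end lay within 1 kb of an end of 42 of the 77 MRP genes (54.5%, 43.5% to 65.2%), compared with 28.5% of all protein-coding genes. Among protein-coding genes between the length quartiles of the MRP genes, the share was 34.3%. This trait is not particular to MRP genes. It was found in 39.0% of cytosolic ribosomal protein genes, 46.6% of respiratory chain and ATP synthase genes and 55.4% of a list of other mitochondrial translation genes. Of the 14 gene-end intervals at MRP genes, 7 were also within 1 kb of an end of another protein-coding gene, so that these intervals cannot be assigned to the MRP gene alone. Of all 3054 gene-end intervals, 553 (18.1%) were at ends of several protein-coding genes. The neighbours were EME1 at MRPL27 and EME2 and NME3 at MRPS34, NDUFS6 at MRPL36, TCP1 at MRPL18, GNRH2 at MRPS26 and TPD52 at MRPS28. EME1 and EME2 code for subunits of DNA endonucleases and TCP1 for a subunit of the cytosolic chaperonin. In 6 of the 7 intervals the MRP gene end was nearer than that of the neighbour, and the exception was the NME3 interval. For example, the MRPL27 interval was 115 bp from MRPL27 and 160 bp from EME1. At MRPL36 this holds only for the outermost gene end, at 181 bp compared with 208 bp for NDUFS6. The listed MRPL36 start was 1778 bp away. MRPL3, MRPL4, MRPL17, MRPL20, MRPL58 and MRPS17 had no such neighbour at their interval.

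Within the group, genes with and without a neighbouring end had similar counts. Of the 42 MRP genes with a neighbouring end, 6 had a gene-end interval (14.3%, 6.72% to 27.8%), and of the 35 others, 6 had one (17.1%, 8.10% to 32.7%). Over all protein-coding genes, the shares were 22.3% of 5710 genes with a neighbouring end and 12.8% of 14327 genes without. The Wilson intervals of the 2 MRP groups overlapped widely, and whether the MRP genes differ from the other genes in this was not tested.

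The classes of symbols were compared by their counts. A gene-end interval was found at 8 of 49 MRPL genes (16.3%, 8.51% to 29.0%) and 4 of 28 MRPS genes (14.3%, 5.70% to 31.5%). Low numbers (MRPL to 36, MRPS to 21) mostly stand for proteins with a bacterial counterpart, and higher numbers for proteins specific to mitochondria. Of the low-numbered genes, 8 of 44 had an interval (18.2%, 9.51% to 32.0%), and of the higher-numbered genes, 4 of 33 (12.1%, 4.82% to 27.3%). Among MRPL genes, the counts were 7 of 28 with low numbers (25%, 12.7% to 43.4%) and 1 of 21 with higher numbers (4.76%, 0.846% to 22.7%). Among MRPS genes the order was the opposite, with 1 of 16 (6.25%, 1.11% to 28.3%) and 3 of 12 (25%, 8.89% to 53.2%). The numbers are only a guide, as MRPS24 is the counterpart of a bacterial protein and MRPS18A and MRPS30 belong to the large subunit. None of these 3 genes had an interval. With them reassigned, the large subunit had 8 of 51 (15.7%, 8.17% to 28.0%) and the small subunit 4 of 26 (15.4%, 6.15% to 33.5%). The low-numbered genes with MRPS24 then had 8 of 45 (17.8%, 9.29% to 31.3%) and the remaining genes 4 of 32 (12.5%, 4.97% to 28.1%). MRPS28, which had an interval, stayed among the remaining genes by its number alone, and its origin was not examined. The Wilson intervals of the compared classes overlapped and each held the background of 15.5%, so no difference between the classes could be seen at these numbers.

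The 63 MRP genes without an interval were mostly far from one, though nearer at the median than all protein-coding genes without one. The distance from a gene end to the nearest interval midpoint was 108 kb at the median (quartiles 28.8 and 346 kb) and was over 100 kb for 32 genes. It was within 5 kb for 1 gene only, MRPL12, a protein of the ribosomal stalk that also binds the mitochondrial RNA polymerase. Its nearest interval, at chr17:81712343-81712564 with a score of 17, was 4.94 kb away and lay within 1 kb of an end of SLC25A10, a mitochondrial dicarboxylate carrier gene. The 16061 protein-coding genes without an interval on chromosomes that had intervals were 203 kb away at the median (quartiles 56.2 and 751 kb). The count of 12 rose to 13 within 2 kb, by MRPL24, and to 14 within 5 kb, by MRPL12. The shares were then 16.9% and 18.2% of the MRP genes, near the 17.2% and 19.8% of all protein-coding genes.

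**Figure D4:**
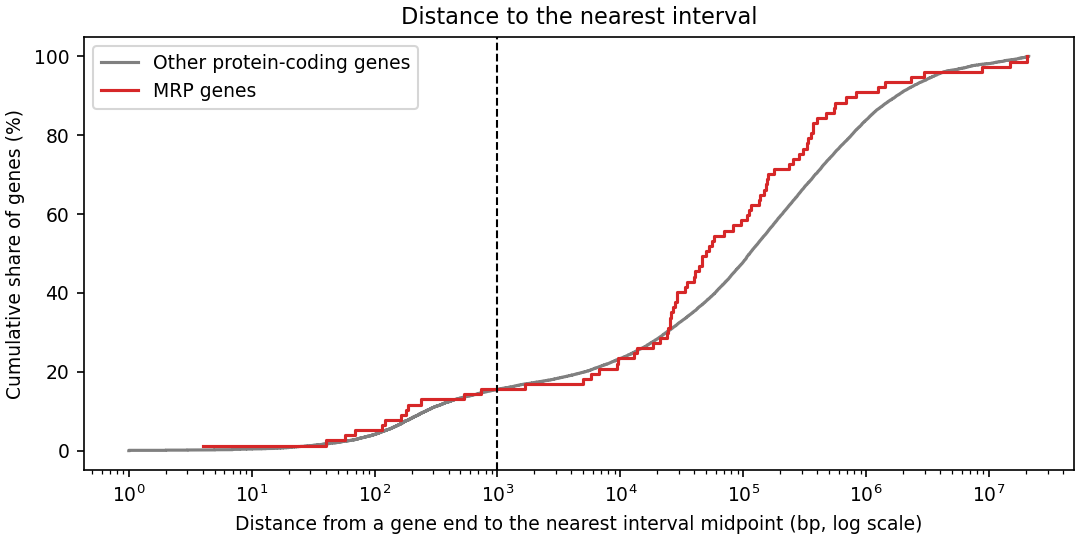
The cumulative share of genes in percent is plotted against the distance in bp from a gene end to the nearest interval midpoint (log scale), for the 77 MRP genes in red and the other protein-coding genes in grey, without chromosome Y. The dashed line marks 1 kb, where both curves are near 15.5%, and between 1 kb and 5 kb the red curve rises by MRPL24 and MRPL12 only.

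Next, the letters of the promoters were described for the 69 MRP genes in the RefSeq table, each over 300 bases (250 before to 50 after the start, taking the listed start nearest to the gene end). Both strands were searched, and a match is a run of letters and not a bound site. The half-site of RFX factors was taken as GTTGCC. It was present in 8 of 69 MRP promoters (11.6%, 5.99% to 21.2%), and in 12.6% of all 15842 protein-coding promoters. It was present in 0 of the 12 MRP promoters with an interval within 1 kb of a listed start, a count that allows a share of up to 25%, and in 8 of the 57 others (14.0%, 7.29% to 25.3%). Over all protein-coding promoters, the half-site was in 12.3% of those with an interval at a listed start and in 12.6% of those without. The MRP genes with the half-site, named after the matches were seen, were MRPL1, MRPL37, MRPL43, MRPS2, MRPS7, MRPS18B, MRPS31 and MRPS33. The inverted pair of half-sites, written as GTNNCC followed by 0 to 3 bases and GGNNAC, was present in MRPL33 and MRPL41 only, neither of which had an interval, and in 4.35% of all protein-coding promoters. GTTGCC is one of the forms of GTNNCC, so the searches overlap. The windows hold only part of most intervals, and the sequence under the rest was not used. At MRPL3, MRPL36 and MRPS26, which are among the 12, the window held no base of an interval. The count of 0 of the 12 therefore says nothing on the letters under those intervals.

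Matches for ETS factors and YY1, which bind the promoters of many housekeeping genes, were more frequent in MRP promoters than in all promoters. The core of ETS factor sites, CCGGAA, was present in 40 of 69 MRP promoters (58.0%, 46.2% to 68.9%), compared with 22.7% of all protein-coding promoters. The core of YY1 sites, AAGATGG, was present in 23 of 69 (33.3%, 23.4% to 45.1%), compared with 6.36%. The Wilson intervals did not reach the shares of all promoters. These matches were present with and without an interval, as CCGGAA was in 8 of the 12 MRP promoters with an interval (66.7%, 39.1% to 86.2%) and in 32 of the 57 others (56.1%, 43.3% to 68.2%). AAGATGG was in 2 of 12 (16.7%, 4.70% to 44.8%) and 21 of 57 (36.8%, 25.5% to 49.8%). In the printed stretches, CCGGAA is found on the strand of the gene 8 and 52 bases before the start of MRPL27, and 21 and 44 bases before that of MRPL20. At MRPS34 it is found on the opposite strand 18, 28 and 70 bases before the start. MRPL3, whose stretch no interval covers, holds it 32 bases before the start on the strand of the gene and 76 bases before it on the opposite strand. The stretches of MRPL4, MRPL36 and MRPS17 do not hold it.

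The remaining elements were closer to the shares of all promoters. NRF1 is a regulator of nuclear genes for mitochondria, and its core GCGCATGC was in 6 of 69 MRP promoters (8.70%, 4.05% to 17.7%), compared with 4.28%. MRPL17 was the only 1 of the 12 with an interval that held it. The CCAAT box was in 20 of 69 (29.0%, 19.6% to 40.6%), compared with 36.4%. The GC box GGGCGG was in 41 of 69 (59.4%, 47.6% to 70.2%), compared with 58.3%, and it was in 77.7% of the 2581 promoters of all genes with an interval at a listed start. The median GC content was 62.7% in the 12 MRP promoters with an interval, ranging from 51.3% to 76.7%, and 60.0% in the 57 others, ranging from 43.3% to 82.0%. Over all protein-coding promoters, the medians were 68.3% with and 61.3% without an interval at a listed start.

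**Figure D5:**
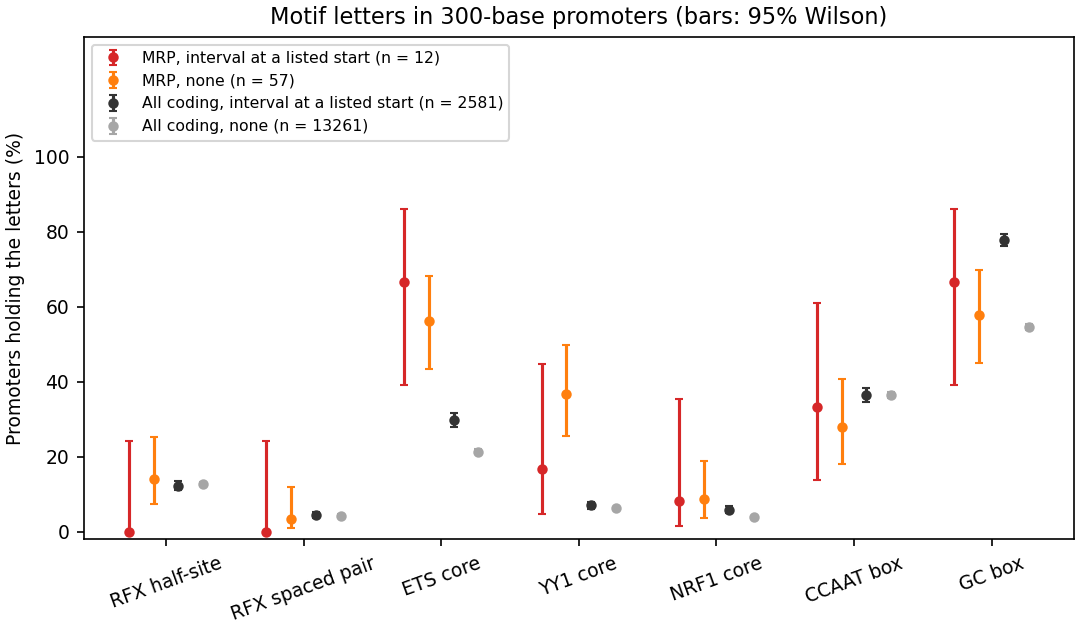
The share of 300-base promoters holding each motif is plotted in percent, with 95% Wilson intervals as bars, for MRP genes with (red) and without (orange) an interval within 1 kb of a listed start and for all protein-coding genes with (black) and without (grey) one. For the ETS and YY1 cores the orange points (56.1% and 36.8%) lie above both grey and black, and the red points of the RFX motifs lie at 0.

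Finally, MRP genes were set beside other gene groups. Of 82 cytosolic ribosomal protein genes, 19 had a gene-end interval (23.2%, 15.4% to 33.4%). Of 88 genes of the respiratory chain and ATP synthase, 16 had one (18.2%, 11.5% to 27.5%). The Wilson intervals of both overlapped that of the MRP genes. Both groups were chosen by symbol. They hold 3 and 2 entries, in that order, that join a listed gene with a neighbour, so some genes were counted more than once. In a list of 56 genes of mitochondrial translation and its RNA, written from general knowledge and holding no MRPL or MRPS symbol, 17 had one (30.4%, 19.9% to 43.3%). The lower limit was above 15.5%, and the range overlapped that of the MRP genes. Because the list was chosen with earlier results of these data known, this limit cannot show an excess. The difference between these groups was not tested.

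Within that list, the genes for assembly and ribosomal RNA modification made up most of the count, with 11 of 27 genes (40.7%, 24.5% to 59.3%). The share was 15.5% of all protein-coding genes and 22.3% of those with a neighbouring end, which 15 of the 27 genes had. As the list was chosen with earlier results of these data known, the counts of its groups cannot show an excess either. The highest scores were at MTG1 (60), a GTPase gene of large-subunit assembly, NSUN4 (51), a ribosomal RNA methyltransferase gene, and MRM3 (46), a ribose methyltransferase gene. The GTPase genes GTPBP10 (39), NOA1 (37) and ERAL1 (33) followed, with RPUSD4 (33), DDX28 (32), DHX30 (30), TRUB2 (29) and MTERF3 (17). DDX28 and DHX30 are RNA helicases. Of 19 genes for translation factors and related proteins, 3 had a gene-end interval (15.8%, 5.52% to 37.6%), namely RMND1 (32), MTFMT (30) and GFM1 (25), the last of which codes for an elongation factor. Of 5 mitoribosomal proteins under other symbols, DAP3 (33), a GTP-binding protein of the small subunit, had one. Of 5 genes for mitochondrial transcription, TFB2M (34) and MTERF1 (25) had one. In parentheses are the scores, and for 8 of these 17 genes the interval was also at an end of another protein-coding gene.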

How the data were processed

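ChIP-seq peaks of HA-RFX6 in MHCC-97H cells were analysed from 1 list. The authors called peaks with MACS2 2.1.0.2 and deposited, per peak, a position and a whole-number score of unstated meaning. Aligner, control and read depth are not given in the sources used here. The submitters' processing notes name GRCh37, but 60.8% of the intervals lay within 1 kb of GRCh38 gene ends, whereas moving them by 20 kb to lower or higher coordinates left 7.65% or 8.11%, so GRCh38 was used. Of 6214 lines (1 repaired), 5022 distinct intervals were kept, each with its highest score, and 3 mitochondrial ones were set aside. Coordinates are 1-based. Genes came from RefSeq GRCh38.p14, promoters and strand from its promoter table.

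The MRP genes and all gene lists were chosen with earlier results of these data known. All MRP genes with an interval, those without one but within 5 kb of one, and listed translation genes with a gene-end interval were named. The gene lookup was tested on simulated data. Python 3.11.15, numpy 2.4.6, pandas 2.3.3, scipy 1.17.1 and matplotlib 3.10.9 were used. Alternatives were scores of at least 20 or 30, merging within 1 kb, windows of 2 and 5 kb, any overlap, the nearest gene end, the lowest score of repeated lines, and shares weighted by chromosome or among genes of similar length. Listed starts and the reassignment of MRPS18A, MRPS24 and MRPS30 were added after seeing the data.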

Additional observations from a re-analysis of the deposited data

Results flagged for a closer look

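Mitochondrial DNA, which was outside the comparisons, held 3 intervals, and they are given because they lie in data not otherwise used. The input was not analysed, so whether they exceed the input was not tested. They ran from 10121 to 10395 (score 52, in ND3), from 11299 to 11637 (score 45, in ND4) and from 13234 to 13548 (score 47, in ND5). ND3, ND4 and ND5 code for subunits of respiratory complex I, and their messages are translated by the mitoribosome. No interval overlapped the genes for mitochondrial ribosomal RNA.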

How the results depend on the processing

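The number of MRP genes with a gene-end interval was 12, and between 9 (score of at least 30) and 14 (within 5 kb) under the alternatives. With a score of at least 30, 11.7% of MRP genes and 9.50% of all protein-coding genes had a gene-end interval, whereas with a score of at least 20 the shares were 13% and 13.8%. By the nearest gene end they were 15.6% and 13.5%. Of 62 recomputed values, 58 stayed within 1.5 times the reported one. The others were, for scores of at least 30, the share of all protein-coding genes (9.50% in place of 15.5%), the MRPS genes (2 in place of 4) and the intervals at a neighbouring gene end (4 in place of 7), and, within 5 kb, the latter (11). Fewer intervals and a wider window change these counts by construction. No paired analysis was possible because only 1 ChIP library exists here, and for that reason no replicate could be left out. Read depth was unknown, so missing intervals at MRP genes may be unbound or too thinly read, which cannot be told apart.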

Other observations

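MRP pseudogenes, of which RefSeq lists many, carried no interval. Of 106 pseudogenes with an MRPL or MRPS symbol, 0 carried one in the body or at most 1 kb from an end, which allows a share of up to 2.83%. Of all 16845 pseudogenes, 85 had one (0.505%), so the MRP pseudogenes could not be told from the others at this number.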
